A study of Mus musculus with 42 samples.

Results

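Gene expression in the ventromedial hypothalamus (VMH) was compared with that in the paraventricular nucleus (PVN) of mice fed ad libitum, across all genes measured. The comparison used 12 of the 42 RNA sequencing libraries of the series, picked by their labels: 6 libraries of the fed VMH and 6 of the fed PVN. The comparison itself and the gene lists were chosen with earlier results of these data known. All mice of the series were wild-type adult C57/BL6 males, and the other libraries came from the arcuate nucleus (ARC) and the dorsomedial hypothalamus (DMH) or from mice fasted for 24 hours before the brain was taken. Each nucleus was cut by laser from stained frozen sections, and its RNA was amplified before sequencing, so a library held all the cells of the cut area. The labels did not say which VMH and PVN libraries came from the same mouse. The libraries were therefore treated as separate samples, and the p-values measure the spread between libraries.

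The VMH is a compact nucleus at the base of the hypothalamus, made up mainly of glutamatergic neurons, and is known for its part in glucose counter-regulation, energy expenditure and defensive and sexual behavior. Its neurons are marked during development by the nuclear receptor SF-1, the product of Nr5a1. The PVN lies higher, beside the third ventricle, and holds the neuroendocrine cells that release oxytocin and vasopressin in the posterior pituitary and corticotropin-releasing and thyrotropin-releasing hormone into the portal blood. It also carries the melanocortin-responsive neurons that restrain feeding, and its neurons depend on the transcription factors SIM1, OTP and POU3F2.

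Levels were in RPKM (reads per kilobase of transcript, scaled to the depth of the library), which allows levels to be set side by side between genes. Differences between nuclei are given on the log2(RPKM + 1) scale as VMH minus PVN, so a positive value is higher in the VMH. The added 1 makes the differences of genes with low values smaller than they are. A gene was called when its limma adjusted p was under 0.1. Where 3 RPKM values are given for a gene, they are the lowest, the median and the highest of the 6 libraries of a nucleus.

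Of 33579 genes tested, 3305 (9.84%) were called, 1639 higher in the VMH (4.88%) and 1666 higher in the PVN (4.96%). The 6 VMH and the 6 PVN libraries did not overlap in 1431 genes (4.26%), 741 of them higher in the VMH (2.21%) and 690 in the PVN (2.05%). Differences of at least 1 on the log2 scale were found for 428 of the genes higher in the VMH and 408 of those higher in the PVN, and differences of at least 3 for 9 and 14. The genes tested included genes with few or no reads. Among protein-coding genes with a mean of at least 5 RPKM, 1062 of 8418 were higher in the VMH and 1110 in the PVN. These shares are larger than those over all genes, and the counts of list members below are to be read beside both. With only the 12 libraries fitted, 2403 genes were called, 1183 higher in the VMH and 1220 in the PVN. The first principal component, with 38.6% of the variance, separated the nuclei. Pearson correlations of log2 values across 9083 expressed genes, which are not independent replicates, were 0.856 to 0.945 within the VMH, 0.881 to 0.961 within the PVN and 0.785 to 0.880 between them. Depth recovered from the values was 3.20 ± 1.21 M reads (megareads) per VMH library (SD, n = 6, range 1.54 to 4.48) and 4.59 ± 1.57 M per PVN library (n = 6, range 1.88 to 6.22), with an exact permutation p = 0.117 (two-sided). This is the depth that the scaling of the values implies, not the reads sequenced, of which the paper reports a higher mean. VMH-Fed library 1 stood apart on the second component (11.4% of the variance), and without it 1684 genes were higher in the VMH and 1615 in the PVN. Each of the 3 batches that could be recovered from the values held 2 libraries of each nucleus.

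**Figure D1:**
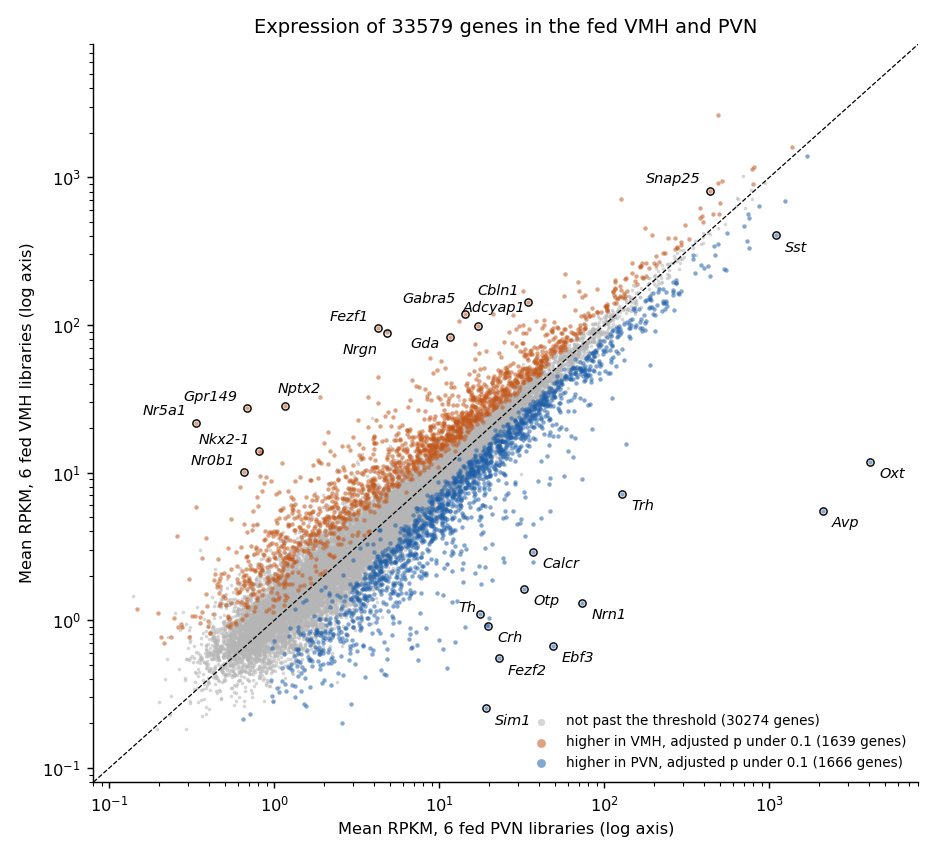
Mean RPKM of each gene tested over the 6 fed PVN libraries (x axis, log scale) and over the 6 fed VMH libraries (y axis, log scale); orange points were called higher in the VMH, blue points higher in the PVN, and grey points did not pass limma adjusted p under 0.1. The dashed line marks equal levels; Oxt and Avp lie farthest below it, and Nr5a1, Gpr149 and Fezf1 are among the farthest above it.

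The largest differences on the VMH side included regulators of VMH development. Fezf1, a zinc finger repressor that the VMH needs to form, was at 57.8, 101.4 and 126 RPKM in the VMH and at 1.97, 3.64 and 9.18 RPKM in the PVN. Its log2 difference was 4.24 (SE 0.28, limma adjusted p = 6.56e-14), and the highest PVN library stayed below the lowest VMH library. Nr5a1 (chromosome 2, 38692656 to 38714542), which encodes SF-1, was at 7.29, 21.3 and 38.5 RPKM in the VMH against 0.235, 0.366 and 0.392 RPKM in the PVN, a difference of 3.96 (SE 0.21, limma adjusted p = 3.13e-16). The VMH libraries spread widely for this gene, and all of them lay above every PVN library. Nr0b1, the nuclear receptor DAX1 that partners SF-1 in the adrenal and gonad, was at 4.78, 9.93 and 15 RPKM in the VMH and 0.552, 0.634 and 0.785 RPKM in the PVN. Counted in reads, Nr0b1 had 358 reads over the 6 VMH libraries and 2 over the 6 PVN libraries, a depth-scaled ratio of 257 with a 95% exact interval of 70.6 to 2131 that covers counting error only. Every library carries a small number of added reads for each gene, about 5 at the mean depth, and the PVN values of Nr0b1 are mostly those.

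Of the 21 VMH identity genes tested, 16 were higher in the VMH and 4 higher in the PVN, with a median difference of 1.41 on the log2 scale against 0.00 over all genes tested. Among the 16 were Gpr149, an orphan receptor (4.07), Nptx2, a secreted pentraxin that gathers glutamate receptors (3.82), and Gda, a guanine deaminase (2.73). The transcription factor Sox14 was at 6.51, 7.96 and 9.79 RPKM in the VMH and 0.376, 0.634 and 0.932 RPKM in the PVN, and differed by 2.46 (SE 0.23). Vgll2 was low in both nuclei, with 38 reads over the VMH libraries and 0 over the PVN libraries, at least 18.2-fold higher at equal depth when a count of 0 is taken as 3 reads over the group. The 4 that ran the other way were Cckar, Dlk1, Foxp2 and Rprm. Foxp2, a forkhead repressor, was at 0.422, 0.509 and 0.700 RPKM in the VMH and 5.7, 7.46 and 8.66 RPKM in the PVN (-2.43, SE 0.13). Dlk1, a non-canonical Notch ligand, was at 11.7, 14.9 and 20.8 RPKM in the VMH and 91.1, 109 and 210.5 RPKM in the PVN (-3.0, SE 0.20). No library of one nucleus reached the range of the other for Cckar, Dlk1 or Foxp2, whereas the ranges overlapped for Rprm. Nkx2-2 was the member that did not pass, with a difference of 0.24 (SE 0.30).

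The transcription factors of the PVN were as sharply divided. Of the 12 PVN identity factors tested, 10 were higher in the PVN and 0 in the VMH, with a median difference of -2.34. Sim1 (chromosome 10, 50894754 to 50989152), loss of a copy of which causes obesity in mice, was at 0.158, 0.247 and 0.356 RPKM in the VMH and 16.9, 18 and 25.5 RPKM in the PVN. The PVN libraries were close to each other, and the difference was -3.99 (SE 0.12, limma adjusted p = 9.56e-23). Ebf3, a transcription factor of the early B-cell factor family, differed by -4.93 (SE 0.18), at 0.273, 0.579 and 1.34 RPKM in the VMH and 40.3, 51 and 56.8 RPKM in the PVN. Pou3f2, the POU factor BRN2 that corticotropin-releasing, oxytocin and vasopressin cells need, was at 1.16, 2.34 and 3.42 RPKM in the VMH and 13.7, 19.3 and 22.4 RPKM in the PVN (-2.65, SE 0.22). All 3 had separate ranges.

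Otp, a homeobox gene of the same cells, was called with a wider spread, at 0.694, 1.0 and 5.08 RPKM in the VMH and 7.55, 17.4 and 109.9 RPKM in the PVN (-3.32, SE 0.38). PVN-Fed library 1 was far above the others, VMH-Fed library 6 was at 5.08 RPKM and the other VMH libraries were at or below 1.28 RPKM, and the ranges stayed separate. Otp had 6 reads over the VMH libraries and 1152 over the PVN libraries, so its spread within the VMH rests on few reads. Fezf2, the paralog of Fezf1, ran in the opposite direction to it, with 4 reads over the VMH libraries and 1442 over the PVN libraries and a difference of -3.78 (SE 0.27). Uncx (-2.79), Pou3f4 (-2.02), Nhlh2 (-1.74), Sim2 (-0.91) and Arnt2 (-0.79), the partner with which SIM1 binds DNA, were also higher in the PVN. Arnt2 was abundant in both nuclei, at 44.3 ± 5.59 RPKM in the VMH and 76.8 ± 4.63 RPKM in the PVN (mean ± SD, n = 6). Pou3f1 and Nfib did not pass, with differences of 0.04 and 0.24.

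**Figure D2:**
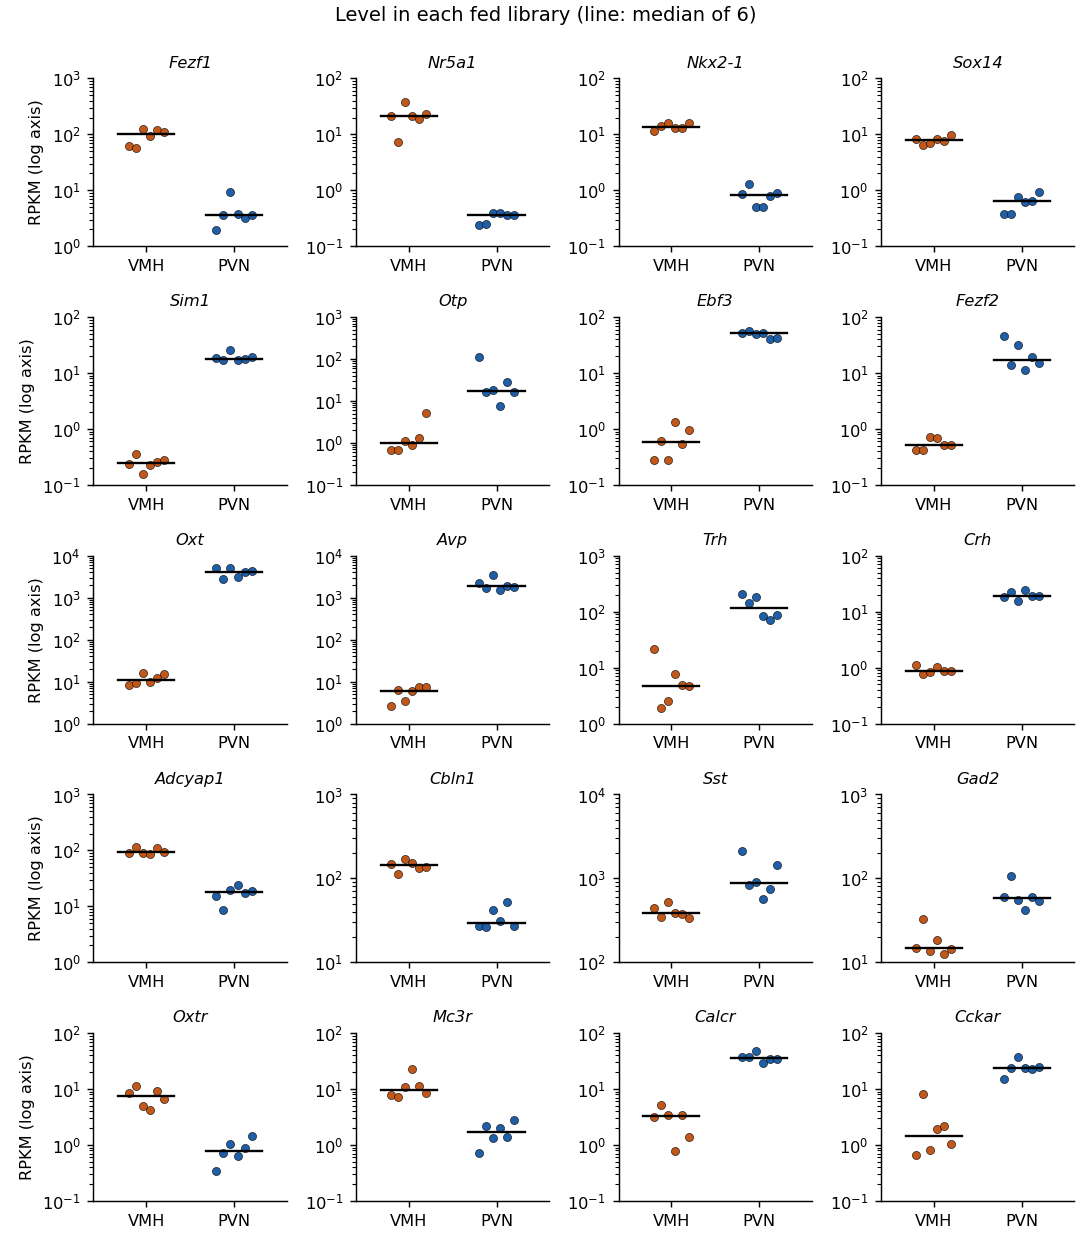
RPKM in each of the 12 fed libraries for 20 genes (y axes, log scale, which differ between panels); orange points are the 6 VMH libraries, blue points the 6 PVN libraries, in order of replicate number, and black lines the medians. The nuclei are separated in every panel; Cckar and Trh are among the most spread in the VMH and Otp in the PVN.

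Over the longer list of developmental transcription factors, 16 of 83 tested were higher in the VMH and 14 higher in the PVN, with a median of -0.03. Among genes with a mean of at least 5 RPKM, which leaves fewer members to test, 3 were higher in the PVN. Nkx2-1, the homeobox gene that specifies the ventral hypothalamus, was at 11.4, 13.7 and 16 RPKM in the VMH and 0.498, 0.817 and 1.28 RPKM in the PVN (3.05, SE 0.15). Nr2f2, the orphan receptor COUP-TFII, was at 20.7, 26.4 and 29.8 RPKM in the VMH and 3.72, 4.6 and 6.58 RPKM in the PVN (2.19, SE 0.14). Both had separate ranges. Isl1 (1.73), Sox1 (1.89) and Lmo3 (1.63) were further factors on the VMH side. On the PVN side stood Lmo2 (-1.90), Zic1 (-1.50), Lhx5 (-1.45) and Lhx2 (-1.30).

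Of 39 nuclear receptors tested, 4 were higher in the VMH and 4 in the PVN, and 31 did not pass (median 0.05). The 20.5% called stood beside 9.84% of all genes, and was no higher than among protein-coding genes of at least 5 RPKM. Nr5a1, Nr0b1 and Nr2f2, described above, were among those on the VMH side. Higher in the PVN were Nr4a1 (-1.23), Esr2, estrogen receptor beta (-0.87), Rxra (-0.59) and Nr3c1, the glucocorticoid receptor (-0.50, limma adjusted p = 0.0231).

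Neuropeptides gave the largest differences of the whole comparison. Of 45 precursors tested, 16 were higher in the PVN and 5 in the VMH, with a median of -0.18. Oxt, the oxytocin precursor, was at 8.49, 10.8 and 16.5 RPKM in the VMH and 2744, 4175 and 5076 RPKM in the PVN. The ranges were far apart, and the difference was -8.32 (SE 0.43, limma adjusted p = 1.29e-16). Avp, the vasopressin precursor, was at 2.6, 6.1 and 7.46 RPKM in the VMH and 1536, 1884 and 3399.9 RPKM in the PVN, a difference of -8.36 (SE 0.33, limma adjusted p = 4.89e-20). Exact permutation of the libraries gave p = 0.002165 (two-sided) for each, the smallest that 6 against 6 allows. Any gene with separate ranges takes this value, so it restates the separation.

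The split of reads between these 2 precursors is uncertain. The genes lie beside each other on chromosome 2 on opposite strands, and their messages share a stretch of 127 bases, all coding, in exons 1 and 2 of both (chr2:130576328-130576715, + strand, for Oxt and chr2:130581133-130582411, - strand, for Avp, GRCm38, introns included). It is 127 of 537 bases of the Oxt transcript and of 577 of the Avp transcript. The stretch is shown because a 50-base read that falls inside it matches both genes, so either gene's value can hold reads of the other. It codes for part of neurophysin, the carrier protein with which each hormone is packed.
Oxt and Avp shared stretch: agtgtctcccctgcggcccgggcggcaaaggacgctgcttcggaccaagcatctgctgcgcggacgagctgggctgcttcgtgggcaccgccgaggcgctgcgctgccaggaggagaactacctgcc
Within the PVN the mean of Oxt was 4066 ± 955 RPKM and that of Avp 2113 ± 678 RPKM (mean ± SD, n = 6), so the nuclei differed by far more than the genes did.

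Trh, Crh, Sst and Ucn3 were also higher in the PVN. Trh, the thyrotropin-releasing hormone precursor, was at 1.89, 4.74 and 21.1 RPKM in the VMH and 71.3, 114 and 204 RPKM in the PVN (-4.23, SE 0.35, limma adjusted p = 2.61e-11). VMH-Fed library 1 held the highest VMH level, and the ranges stayed separate. Crh, the corticotropin-releasing hormone precursor, had 2 reads over the VMH libraries and 670 over the PVN libraries, a depth-scaled ratio of 233 (95% exact interval 64.3 to 1930, counting error only). Its RPKM values were 0.767, 0.884 and 1.11 in the VMH and 15.5, 19.2 and 24.1 in the PVN, and the fitted difference of -3.43 (SE 0.17) understates that ratio because of the reads added to each gene. Sst, the somatostatin precursor, was abundant in both nuclei, at 336, 383 and 525 RPKM in the VMH and 562, 872 and 2103 RPKM in the PVN (-1.31, SE 0.21). Ucn3, urocortin 3, an agonist of the corticotropin-releasing hormone receptor 2, was at 0.600, 0.825 and 1.52 RPKM in the VMH and 6.47, 15.3 and 46.9 RPKM in the PVN (-3.18, SE 0.39). For both the ranges were apart, and PVN-Fed library 1 was the highest of the PVN.

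Further precursors higher in the PVN were Nxph4 (-2.84), Ghrh (-2.56), Gal (-2.36), Cck (-2.07), Cbln2 (-1.81), Cartpt (-1.39) and Penk (-1.24). Fed means of Ghrh and Cartpt were higher in the ARC (199 and 387 RPKM) than in the PVN (31.3 and 80.0 RPKM). Those of Gal, Cck and Cbln2 were higher in the DMH (210, 51.5 and 16.2 RPKM) than in the PVN (46.7, 24.7 and 10.6 RPKM). Nxph4 and Penk were highest in the PVN among the fed nuclei. Abundant secreted signals higher in the VMH than in the PVN were Adcyap1 and Cbln1. Adcyap1, the precursor of the peptide PACAP, was at 86.5, 91.8 and 116 RPKM in the VMH and 8.58, 17.9 and 23.8 RPKM in the PVN (2.50, SE 0.26, limma adjusted p = 6.71e-09). Cbln1, a synaptic organizer, was at 111, 142 and 171 RPKM in the VMH and 26.6, 29 and 52.4 RPKM in the PVN (2.06, SE 0.27). Both had separate ranges. Pmch and Pomc, which are known from the lateral hypothalamus and the ARC, were also higher in the VMH (1.95 and 1.13), with overlapping ranges. Their VMH levels of 17.7 ± 11.9 and 19.4 ± 5.71 RPKM (mean ± SD, n = 6) stood beside means of 420.2 RPKM of Pmch in the fed DMH and 518 RPKM of Pomc in the fed ARC, the neighbors in the tissue. Carry-over from neighboring tissue was not tested, and 58.1% of the exon bases of Pmch overlap another gene. Of 16 markers of neighboring regions, these 2 were higher in the VMH and Ghrh and Lef1 in the PVN, and the call of Lef1 was lost in 8 of 12 fits that left out 1 library. Nts was higher in the VMH by 1.33, with overlapping ranges. Of the 24 that did not pass, those with the highest VMH means were Tac1 (0.30) and Pdyn (-0.31, limma adjusted p = 0.108).

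Promoter windows of 4 genes are shown, Oxt and Avp for the largest differences on the PVN side and Fezf1 and Adcyap1 as a regulator and a peptide of the VMH. Each is of 100 bases from the 250 before the start, read from RefSeq on GRCm38.p6, 5′ to 3′ on the strand of the gene, with motif letters in capitals. The motifs searched on both strands were CAAGGTCA (the site of SF-1), TACGTG (the site of SIM1 with ARNT2) and ATGCAAAT (the octamer of POU factors), and none of them contains another.
Oxt, chr2:130575963-130576062, + strand: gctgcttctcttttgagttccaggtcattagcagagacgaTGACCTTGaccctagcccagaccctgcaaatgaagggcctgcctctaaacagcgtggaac
Avp, chr2:130582589-130582688, - strand: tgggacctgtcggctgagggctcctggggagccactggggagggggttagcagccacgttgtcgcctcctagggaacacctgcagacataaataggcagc
Adcyap1, chr17:93198913-93199012, + strand: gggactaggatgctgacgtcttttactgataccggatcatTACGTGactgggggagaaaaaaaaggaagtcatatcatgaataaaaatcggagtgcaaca
Fezf1, chr6:23248265-23248364, - strand: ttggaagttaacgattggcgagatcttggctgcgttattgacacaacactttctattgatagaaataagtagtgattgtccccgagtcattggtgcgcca
The capitals mark the reverse complement of CAAGGTCA in the Oxt window, 166 bases before the start, and TACGTG in the Adcyap1 window, 64 bases before the start. None of the 3 motifs was found in the 300 bases around the start of Avp or Fezf1. Over the 13914 of 18082 protein-coding genes tested that had a promoter in the table, CAAGGTCA was in 1.43% of all promoters, 0.929% of those of genes higher in the VMH and 0.494% of those of genes higher in the PVN. For TACGTG the shares were 3.82%, 3.81% and 3.95%, and for ATGCAAAT 1.69%, 2.41% and 1.15%. A match describes the letters only, and the shares in both called sets were set beside that of all promoters without a test.

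Receptors for peptides and metabolic hormones went both ways, 16 of 64 being higher in the VMH and 18 in the PVN (median -0.16). Oxtr, the receptor of the oxytocin that the PVN makes, was at 4.23, 7.56 and 11.5 RPKM in the VMH and 0.349, 0.789 and 1.43 RPKM in the PVN (2.17, SE 0.29, limma adjusted p = 7.19e-07). Cckbr, a cholecystokinin receptor, was at 10.4, 15 and 22.7 RPKM in the VMH and 1.44, 2.59 and 6.86 RPKM in the PVN (2.03, SE 0.27), whereas Cckar, the other one, was at 0.672, 1.48 and 8.29 RPKM in the VMH and 15.4, 23.7 and 38 RPKM in the PVN (-3.13, SE 0.31). The ranges of all 3 receptors were separate, and the 2 cholecystokinin receptors went in opposite directions. Sstr3 (2.46) and Sstr2 (-1.73), both receptors for somatostatin, were likewise divided, the former higher in the VMH and the latter in the PVN.

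Among receptors tied to energy balance, Mc3r, a melanocortin receptor, was at 7.2, 9.63 and 22.4 RPKM in the VMH and 0.713, 1.7 and 2.76 RPKM in the PVN (2.12, SE 0.26). Calcr, the calcitonin receptor that amylin also uses, was at 0.79, 3.34 and 5.1 RPKM in the VMH and 29.2, 36 and 47.5 RPKM in the PVN (-3.37, SE 0.22, limma adjusted p = 8.53e-14). Glp1r, the receptor for glucagon-like peptide 1, was at 3.35, 5.96 and 14.4 RPKM in the VMH and 20.4, 29.5 and 52 RPKM in the PVN (-2.06, SE 0.37). None of the 3 overlapped between the nuclei. In the bombesin receptor family, Grpr (-2.65) and Brs3 (-1.07) were higher in the PVN, and Nmbr (1.59) in the VMH. Nmbr shares bases with another gene and is uncertain. Crhr2, the receptor for Ucn3, was low, at 0.644, 0.814 and 1.91 RPKM in the VMH and 0.25, 0.459 and 0.572 RPKM in the PVN (0.52, SE 0.16), and its call was lost in 2 of 12 fits that left out 1 library.

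Slc17a6 and Gad2, markers of glutamate and GABA neurons, differed in opposite directions. Slc17a6, the vesicular glutamate transporter VGLUT2, was at 125, 153 and 188 RPKM in the VMH and 52.3, 73.7 and 98.9 RPKM in the PVN (1.08, SE 0.16, limma adjusted p = 7.99e-06). Gad2, a glutamate decarboxylase that makes GABA, was at 12.4, 14.6 and 32.5 RPKM in the VMH and 41.6, 57.8 and 108 RPKM in the PVN (-1.80, SE 0.21). The ranges were apart for both. Of 6 glutamate neuron genes, 2 were higher in the VMH and 1, Grin3a (-1.21), in the PVN (median 0.01). Of 12 GABA neuron genes, 4 were higher in the PVN and 0 in the VMH (median -0.46), among them Slc32a1, the vesicular GABA transporter (-1.10), which shares exon bases with another gene. Gad1 did not pass (-0.43, SE 0.24). Th, tyrosine hydroxylase, the first enzyme of dopamine synthesis, was at 0.429, 0.745 and 2.84 RPKM in the VMH and 6.45, 13.6 and 40.6 RPKM in the PVN (-3.0, SE 0.28), with no overlap. Drd1, a dopamine receptor, ran the other way (1.91, SE 0.28), and of 16 monoamine, acetylcholine and nitric oxide genes 3 were higher in each nucleus (median -0.03).

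Genes that make and pack secreted protein were mostly on the PVN side among those called. In the list of prohormone processing and dense-core granule genes, 11 of 25 were higher in the PVN and 3 in the VMH (median -0.35). Pcsk1, the prohormone convertase that starts the cutting of many precursors, was at 4.79, 8.38 and 12.4 RPKM in the VMH and 31.9, 38.3 and 55.8 RPKM in the PVN (-2.1, SE 0.19, limma adjusted p = 3.76e-10). The granins Scg2 (-0.96) and Vgf (-1.23) and the granule protein Resp18 (-1.17) were higher in the PVN, and Chga, chromogranin A (1.43), was higher in the VMH. Of 34 genes of protein folding in the endoplasmic reticulum, 20 were higher in the PVN and 1, Sel1l (0.31), in the VMH (median -0.74). The call of Sel1l was lost in 3 of 12 fits that left out 1 library. Hsp90b1, a chaperone of that compartment, was at 193, 207 and 257 RPKM in the VMH and 403, 424 and 484 RPKM in the PVN, a narrow spread in each, and differed by -1.02 (SE 0.07). Creb3l2, a membrane-bound transcription factor that is released to raise secretory capacity, was at 1.64, 2.65 and 5.6 RPKM in the VMH and 12.4, 13 and 15.5 RPKM in the PVN (-1.96, SE 0.21).

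Cytosolic ribosomal protein genes were higher in the PVN in 59 of 80 cases and higher in the VMH in 0, by a median of -0.50 on the log2 scale. Rps9 was at 37.4, 48.1 and 54.9 RPKM in the VMH and 81, 92.9 and 106 RPKM in the PVN (-0.97, SE 0.11). Many of these genes have processed copies in the genome, and Rpl10, Rps4x and Rpl37a shared enough bases with other genes to be uncertain. Of 97 respiratory chain subunits, in contrast, 6 were higher in the PVN and 1 in the VMH (7.22% called, against 9.84% of all genes), with a median of -0.05. The share over all genes takes in genes with few or no reads. Among protein-coding genes of at least 5 RPKM, 1062 of 8418 were higher in the VMH and 1110 in the PVN.

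Genes of calcium signaling and postsynaptic plasticity were mostly on the VMH side among those called. Of 47 tested, 23 were higher in the VMH and 6 in the PVN (median 0.39). Nrgn, neurogranin, which binds calmodulin in dendrites, was at 69.6, 87.2 and 106 RPKM in the VMH and 1.24, 4.6 and 9.45 RPKM in the PVN (4.10, SE 0.30, limma adjusted p = 1.67e-12). Camkv, a kinase-like calmodulin binder of spines, was at 83.1, 104 and 131 RPKM in the VMH and 11.3, 12.2 and 16.5 RPKM in the PVN (2.92, SE 0.18). Itpr1, a calcium release channel of the endoplasmic reticulum, was at 47.2, 48.8 and 53.8 RPKM in the VMH and 7.0, 10.01 and 10.6 RPKM in the PVN (2.27, SE 0.10). All 3 were apart between the nuclei, and Itpr1 had the narrowest spread of them. Ddn, dendrin (3.03), and Baiap2, a spine scaffold (2.2), were also higher in the VMH, and Necab1, a calcium-binding protein (-2.47), was higher in the PVN. Without the 3 libraries of under 2.1 M reads the count was 22 and 3.

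Of 31 ionotropic glutamate and GABA-A receptor subunits, 16 were higher in the VMH and 4 in the PVN (median 0.41), against 10 and 3 without the 3 shallow libraries. Gabra5, an alpha subunit of extrasynaptic GABA-A receptors, was at 91.8, 118 and 141 RPKM in the VMH and 9.54, 15.1 and 18.4 RPKM in the PVN (2.99, SE 0.18), with separate ranges. Grik3 (1.96) and Gria2 (0.92) were higher in the VMH, and Grin3a (-1.21) and Gabre (-1.12) in the PVN. Potassium channel genes were higher in the VMH in 22 of 85 cases and in the PVN in 9 (median 0.15). Kcna1, a delayed rectifier, was at 9.51, 15.3 and 17.9 RPKM in the VMH and 2.23, 2.77 and 4.06 RPKM in the PVN (1.96, SE 0.27), and its paralog Kcna5 was higher in the PVN (-1.67, SE 0.25). Chrm5, a muscarinic acetylcholine receptor, was at 14.2, 28.8 and 64.4 RPKM in the VMH and 0.662, 1.76 and 3.78 RPKM in the PVN (3.49, SE 0.33).

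Axon guidance and cadherin genes went both ways. Of 50 axon guidance genes, 10 were higher in the VMH and 14 in the PVN (median -0.08), and of 56 cadherins and protocadherins, 6 and 6 (median 0.10). The called share was 48% of guidance genes and 21.4% of cadherins, the latter no higher than among protein-coding genes of at least 5 RPKM. Plxnc1, a semaphorin receptor, was at 15.3, 18.4 and 19.6 RPKM in the VMH and 42.1, 52 and 60.04 RPKM in the PVN (-1.50, SE 0.10), and its relative Plxna1 was higher in the VMH (1.41, SE 0.12). Cdh9 (-1.95) and Cdh4 (1.46) were examples of cadherins that differed in opposite directions. Nrn1, neuritin, a small neurite-promoting protein, was at 0.606, 0.95 and 3.22 RPKM in the VMH and 54.6, 69.5 and 106 RPKM in the PVN (-5.06, SE 0.27), but 22.3% of its exon bases overlap another gene. Scgn, secretagogin, a calcium sensor of endocrine cells, was at 0.577, 1.03 and 1.42 RPKM in the VMH and 13.1, 22 and 24.7 RPKM in the PVN (-3.36, SE 0.25).

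Of 20 immediate-early genes, which neurons switch on after stimulation, 10 were higher in the PVN and 0 in the VMH (median -0.72). Fosl2, an AP-1 subunit, was at 1.36, 1.9 and 2.25 RPKM in the VMH and 16.6, 18.7 and 30.00 RPKM in the PVN (-2.91, SE 0.27, limma adjusted p = 2.79e-10), with no overlap. Fos itself was at 0.708, 2.65 and 4.64 RPKM in the VMH and 4.8, 5.99 and 19.7 RPKM in the PVN (-1.51, SE 0.39, limma adjusted p = 0.00937). Its within-batch differences were -2.64, -1.35 and -0.54, PVN-Fed libraries 1 and 2 of the first batch being the highest, and the call was lost without the 3 libraries of under 2.1 M reads. Jun (-1.69), Egr1 (-1.48) and Btg2 (-1.39) were also higher in the PVN. Glucocorticoid-induced genes were higher in the VMH in 4 of 18 cases and in the PVN in 0 (median 0.30), and Mt1, a metallothionein, differed most (1.07, SE 0.16). The 22.2% called was no higher than among protein-coding genes of at least 5 RPKM. The count of 4 rested on single libraries, being 2 without PVN-Fed library 3 or VMH-Fed library 5, and 2 in each direction without VMH-Fed library 2. The calls of Fkbp5 (0.87) and Klf9 (0.47) were lost in 5 and 7 of 12 fits that left out 1 library.

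**Figure D3:**
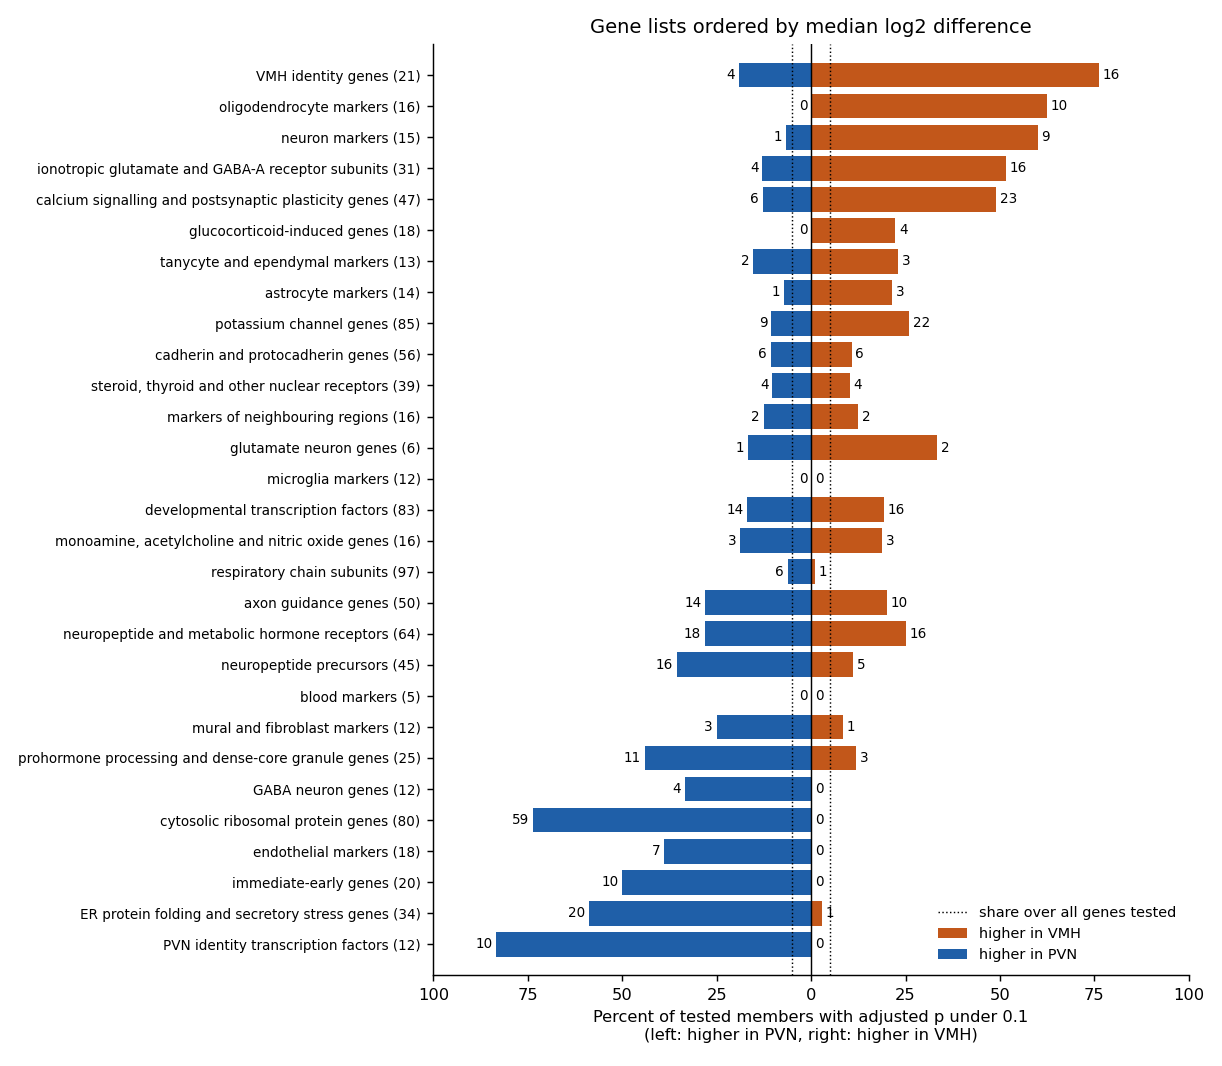
Percent of the tested members of each gene list that were called higher in the VMH (orange, to the right) or higher in the PVN (blue, to the left), with the number of members called beside each bar and the number tested in parentheses; dotted lines mark the shares over all 33579 genes, 4.88% and 4.96%. Lists are ordered by their median log2 difference, from the VMH identity genes (1.41) to the PVN identity factors (-2.34). The 33579 genes include genes with few or no reads, and their shares are below those of protein-coding genes of at least 5 RPKM.

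Markers of the cells around the neurons also moved with the nucleus, and their part in the differences above was not tested. In libraries of whole tissue, more cells of a type and more RNA per cell cannot be told apart. Of 16 oligodendrocyte markers, 10 were higher in the VMH and 0 in the PVN, with a summed level of 324 to 494 RPKM over the VMH libraries and 143 to 203 RPKM over the PVN libraries. Without the 3 libraries of under 2.1 M reads 6 of the 16 were called. Endothelial markers ran the other way, 7 of 18 being higher in the PVN and 0 in the VMH, with sums of 110 to 184 RPKM in the VMH and 189 to 233 RPKM in the PVN. Cldn5, a claudin of the blood-brain barrier, was at 1.87, 3.82 and 7.9 RPKM in the VMH and 7.39, 11.9 and 16.8 RPKM in the PVN (-1.41, SE 0.31). The ranges of Cldn5 overlapped slightly.

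Of 15 neuron markers, 9 were higher in the VMH and 1 in the PVN, with sums of 3047 to 3474 RPKM and 2023 to 2462 RPKM. Snap25, a synaptic fusion protein, was at 733, 831 and 852 RPKM in the VMH and 349, 429 and 522 RPKM in the PVN (0.91, SE 0.08), and Rbfox3, the NeuN antigen, differed by 1.78 (SE 0.14). Astrocyte markers were called in 4 of 14 cases, 3 of them higher in the VMH, mural and fibroblast markers in 4 of 12, 3 of them higher in the PVN, and tanycyte and ependymal markers in 5 of 13, 3 of them higher in the VMH. In that order these were 28.6%, 33.3% and 38.5%, beside 9.84% of all genes and a larger share of protein-coding genes of at least 5 RPKM. None of the 12 microglia or 5 blood markers was called by limma, and at an unadjusted p under 0.05 these were 4 and 0. The microglia sums were 100.3 to 169 RPKM in the VMH and 121 to 134 RPKM in the PVN. VMH-Fed library 1 had the highest sum of the VMH libraries for astrocytes, oligodendrocytes, microglia, tanycyte and ependymal cells, blood and both vessel lists. Its neuron sum was the lowest of them, at 3047 RPKM beside 3054 RPKM in VMH-Fed library 2. Without VMH-Fed library 1 the count was 8 of 16 for oligodendrocyte markers and 8 of 18 for endothelial markers.

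**Figure D4:**
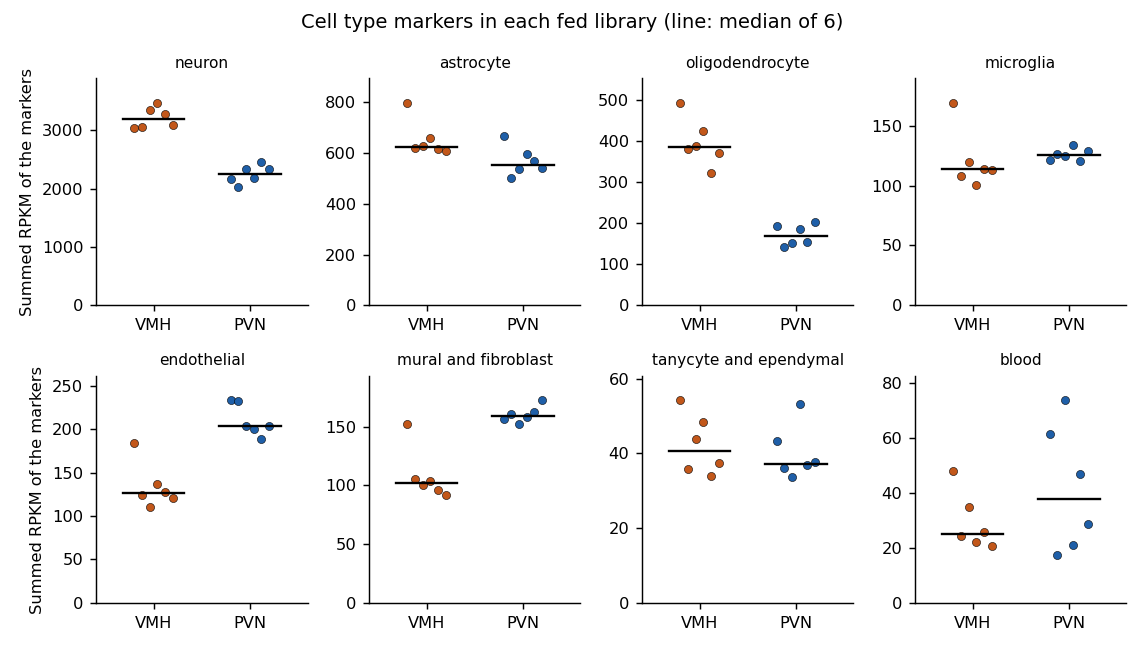
Summed RPKM of the tested markers of 8 cell types (y axes, from 0, which differ between panels) in each of the 12 fed libraries; orange points are the 6 VMH libraries, blue points the 6 PVN libraries, in order of replicate number, and black lines the medians. The nuclei do not overlap for neurons, oligodendrocytes and endothelial cells (110 to 184 RPKM against 189 to 233 RPKM), and the blood sums are low in both.

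Genes that do not code for protein were taken from those called with separate ranges. The largest differences on the VMH side were those of D430036J16Rik (2.51), Gm15738 (1.77), Sox1ot (1.71) and Chn1os1 (1.58). Sox1ot, whose span on the same strand encloses Sox1, was at 11.6, 16.3 and 20.04 RPKM in the VMH and 3.19, 4.19 and 4.79 RPKM in the PVN, and Sox1 differed by 1.89. On the PVN side stood Gm13716 (-2.37), Gm16057 (-2.20), Zfas1 (-1.52) and Gm11417 (-1.48). No source used here states that the counting kept the strand, so antisense reads cannot be told from those of the partner gene, and D430036J16Rik, Chn1os1, Gm13716 and Zfas1 share bases with other genes.

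The same pair of nuclei was available from fasted mice, 6 VMH and 5 PVN libraries that share no library with the fed comparison. There 3104 of 33579 genes were called (9.24%), 1511 higher in the VMH (4.5%) and 1593 in the PVN (4.74%). Of the 1639 genes higher in the fed VMH, 1517 had the same direction in fasted mice, 970 were called there in the same direction (59.2%) and 1 in the opposite one. Of the 1666 higher in the fed PVN, 1558 had the same direction, 928 (55.7%) were called and 4 went the opposite way. Side by side, the values were Fezf1 (4.24 fed and 3.97 fasted), Nr5a1 (3.96 and 4.10), Oxt (-8.32 and -8.69), Crh (-3.43 and -3.57) and Sim1 (-3.99 and -3.55). Nptx2 was one of those with a smaller value in fasted mice (3.82 and 2.46), and the difference between the states did not pass (limma adjusted p = 0.536).

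**Figure D5:**
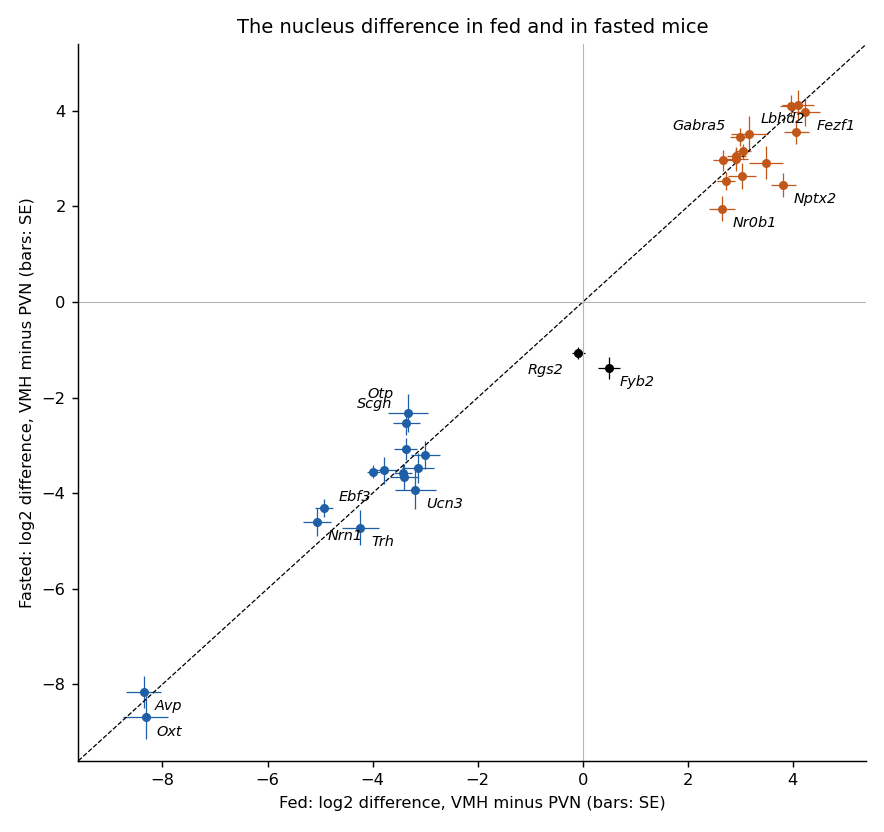
Log2 difference between VMH and PVN in fed mice (x axis) against that in fasted mice (y axis) for the 15 protein-coding genes with the largest difference in each direction and the 2 genes whose difference depended on the state; bars are standard errors, and the dashed line marks equal differences. The 15 in each direction were taken from called genes whose fed VMH and PVN libraries did not overlap. Oxt and Avp lie at the lower end in both states, and Fyb2 and Rgs2 (black) lie below the line.

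In all, 2 genes (0.00596% of those tested) passed the test of whether the nucleus difference depended on the state. Fyb2, an adaptor related to a T cell protein, was at 0.299, 1.14 and 2.58 RPKM in the fed VMH and 0.346, 0.447 and 0.889 RPKM in the fed PVN, with a difference of 0.50 (SE 0.22) that did not pass. In fasted mice it was at 0.694 to 1.92 RPKM in the VMH and 2.22 to 8.47 RPKM in the PVN, a difference of -1.38, and the differences of the 2 states were apart by 1.88 (SE 0.31, limma adjusted p = 0.0256). Rgs2, a regulator of G protein signaling, was at 66.3, 71 and 81 RPKM in the fed VMH and 62.1, 73 and 104 RPKM in the fed PVN (-0.08). In fasted mice it was at 59.4 to 91.6 RPKM in the VMH and 147 to 176 RPKM in the PVN, and the states were apart by 0.97 (SE 0.18, limma adjusted p = 0.0609). In both genes the fed libraries of the nuclei overlapped and the fasted ones did not. Neither passed with a pseudocount of 0.1.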

How the data were processed

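RNA of laser-captured hypothalamic nuclei was amplified and sequenced in 42 libraries. Per the methods and the submitters' processing notes, base calling used CASAVA 1.7, and reads were aligned to the mouse genome GRCm38 with TopHat2 2.0.11 and summarised with Cufflinks 2.2.1, with edgeR and limma also named. The deposited values were RPKM of 37907 Ensembl genes, scaled by the authors to gene length and library depth. They held no 0: the lowest value of a gene recurred across libraries, in 3 sets, which were taken as batches. Subtracting it left whole reads (within 0.02 of a read) for 97.7% to 98.84% of low values in each library, which gave the read numbers and depths (1.33 to 13.2 M, megareads, per library). These recovered reads describe depth and low genes only.

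Genes of at least 1 RPKM in at least 4 libraries were tested with limma 3.58.1 (R 4.3.3) on log2(RPKM + 1). The model held a mean per group, over 8 groups and all 42 libraries, with a trended prior variance, and p-values were adjusted by Benjamini-Hochberg over 33579 genes. The fasted comparison and the difference between states came from the same fit. The count model of the study's methods was not used, since the deposited values are not counts. Exact permutation tests (Python 3.11.15, scipy 1.17.1) were two-sided. The procedure was tested on simulated data. Symbols were matched for 35965 IDs through a GENCODE annotation of GRCm38. A gene was called uncertain where over 20% of its exon bases overlapped another gene or over 10% of its 50-base stretches occurred in another.

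The genes named were the largest calls per direction, coding and noncoding, among genes whose VMH and PVN libraries did not overlap. Separate ranges of those genes were therefore set by the rule. The members of the identity, peptide and marker lists and the leading calls of each other list were also named. The comparison and lists were chosen with earlier results of these data known. Alternatives covered the pseudocount, the filter, scaling, covariates, weights, the libraries fitted and each library left out. The 3 libraries of under 2.1 M reads were left out as an alternative chosen after seeing the data.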

Additional observations from a re-analysis of the deposited data

Results flagged for a closer look

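Among the 60 genes given per library, 120 groups of 6 libraries were put to Dixon's test. In 19 of them 1 library had a gap to the nearest other beyond the critical value. Chance gives about 1 in 20 for normally distributed values. The test was run on RPKM, not on log values, so the 19 cannot be set against that rate. The outlying value was the highest of its group in every case except Itpr1. In every case the call held without that library.

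PVN-Fed library 1 stood apart in 5 genes. Otp was at 109.9 RPKM there against 7.55 to 27.8 RPKM in the other PVN libraries, and the nucleus difference was -2.87 on the log2 scale without it. Ucn3 was at 46.92 RPKM against 6.47 to 20.6 RPKM, Pcsk1 at 55.76 RPKM against 31.9 to 40.5 RPKM, and Nrn1 at 106.3 RPKM against 54.6 to 72.4 RPKM. Itpr1 was low in the same library, at 6.996 RPKM against 9.61 to 10.6 RPKM. PVN-Fed library 3 was the highest for Fezf1 (9.177 RPKM against 1.97 to 3.81), Nptx2 (2.937 RPKM against 0.480 to 1.15) and Sim1 (25.53 RPKM against 16.9 to 19.3). PVN-Fed library 2 was the highest for Gad2, at 107.8 RPKM against 41.6 to 59.8 RPKM, and PVN-Fed library 5 for Pmch, at 11.43 RPKM against 1.38 to 4.47 RPKM.

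VMH-Fed library 2 was the highest of its group in 4 genes that were higher in the PVN. Cckar was at 8.289 RPKM against 0.672 to 2.21 RPKM, Gal at 23.12 RPKM against 3.82 to 10.9 RPKM, Gad2 at 32.48 RPKM against 12.4 to 18.2 RPKM, and Nrn1 at 3.223 RPKM against 0.606 to 1.37 RPKM. VMH-Fed library 6 was the highest for Otp (5.08 RPKM against 0.694 to 1.28) and Cldn5 (7.898 RPKM against 1.87 to 4.02). The VMH values of Otp rest on 6 reads over the 6 libraries. VMH-Fed library 1 was the highest for Trh (21.11 RPKM against 1.89 to 7.75) and Chrm5 (64.37 RPKM against 14.2 to 32.5), and VMH-Fed library 4 for Mc3r (22.42 RPKM against 7.2 to 11.2).

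Fyb2 and Rgs2 stood out because their VMH-minus-PVN difference differed between fed and fasted mice by limma's interaction term, by 1.878 and 0.9747 on the log2 scale.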

How the results depend on the processing

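The 26 alternatives to the fed comparison, 12 of which left out 1 library, gave 736 to 1900 genes higher in the VMH and 743 to 1849 higher in the PVN, and none of the 229 called genes that are named changed sign in any of them where it was tested. The lowest counts, 1479 genes in all, came from the 12 libraries alone with the replicate number as a block (736 and 743), where the 12 libraries without the block gave 1183 and 1220. Of the 229, 204 were still called in the 12 libraries alone, 175 with the block and 211 without the 3 shallow libraries. Among the 58 called genes given per library, 55 kept their call under every alternative, Fos, Vgll2 and Pomc losing it with the block and Fos also without the shallow libraries. The deviations of libraries with the same number did not move together (correlations from -0.0737 to -0.017 over 6 pairs), and no library correlated best with the one of its own number. Per the methods the nuclei were cut from the same brains, so VMH and PVN libraries can share a mouse. The correlations cannot show which do, since no pair known to share a mouse was there for comparison. The numbers were not taken as pairs because the labels do not give them that meaning. Requiring a difference of at least 1 left 836 genes, 428 and 408. Leaving out 1 library gave 1412 to 1684 and 1472 to 1624. With the block, counts of members higher in the VMH and PVN became 15 and 2 for calcium and plasticity genes, 9 and 9 for peptide receptors, 9 and 3 for receptor subunits, and 0 and 42 for ribosomal protein genes. It left 5 immediate-early genes, 4 endothelial markers, 6 guidance genes and 2 cadherins higher in the PVN, 13 potassium channels, 10 developmental factors and 3 neuropeptides higher in the VMH, 1 GABA neuron gene and 1 glucocorticoid-induced gene. With a mean of at least 5 RPKM, which tests fewer genes, the counts higher in the PVN were 3 for developmental factors, 6 for PVN identity factors, 8 for guidance genes and 3 for cadherins, and peptide receptors numbered 6 and 9. Counts of 0 to 2 members in the lesser direction of a list moved by 1 or 2 when single libraries were left out.

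The test of a difference between states called 2 genes, 0 with a pseudocount of 0.1 or with none, 1 with a mean of at least 5 RPKM, 1 with batch as a covariate, and 1 to 5 without 1 library, 5 of them without PVN-Fed library 6. Depth differed by -1.395 M reads (VMH minus PVN), or -1.939 to -1.064 without 1 library, with an exact permutation p = 0.01732 without PVN-Fed library 2.

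Recovered depths of 1.54 to 6.22 M reads per library limit the genes of low level. In Crh, Fezf2, Otp, Ucn3, Grpr, Shisal2a and Sim2, 4 of 6 VMH libraries had no read. Differences of such genes rest on the added reads and were smaller than their read ratios.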

Other observations

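Genes higher in the VMH spanned more of the genome. Among protein-coding genes with a mean of at least 5 RPKM over the nuclei, the median span from first to last exon was 54.7 kb for the 1062 higher in the VMH, 24.9 kb for the 1110 higher in the PVN and 26.7 kb for all 8418. The relation of this to depth or RNA quality was not tested.

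Some of the largest differences belonged to genes outside the lists above. Lbhd2 was at 26.8, 46.0 and 55.1 RPKM in the VMH and at 2.40, 3.79 and 8.52 RPKM in the PVN (3.17 on the log2 scale). Hs3st4, a heparan sulfate sulfotransferase, was at 22.0, 33.8 and 37.9 RPKM in the VMH and at 2.26, 2.91 and 7.98 RPKM in the PVN (2.92). Shisal2a ran the other way, at 1.52, 2.2 and 4.83 RPKM in the VMH and 17.7, 38.3 and 55.1 RPKM in the PVN (-3.40). The rule that named these 3 genes took only genes without overlap between the nuclei, so their separate ranges were set in advance.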
